A study of Mus musculus with 4 samples.

Results

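Cxcl1, Cxcl2 and Cxcl5 are secreted chemokines that attract neutrophils, and Cxcr2 is the receptor through which neutrophils sense them. These 4 genes were taken by their symbols from the 31054 features of the count tables. They were followed across cell classes of the stromal vascular fraction (SVF) of gonadal white adipose tissue (gWAT), to see which cells held the ligand transcripts and which held the receptor transcript. The tissue came from 18-month-old male mice of the genotype p16-CreERT2/R26-LSL-tdTomato, given tamoxifen. In these mice cells that use the p16 promoter at the time of tamoxifen become tdTomato positive (Tom+, or p16high). All 4 libraries share this genotype, age and treatment, and their labels differ in the sort. Whether they came from the same mice or the same preparation is not given in the sources used here. Library A is the one labelled CD45- Tom+, library B is labelled CD45- Tom-, library C is labelled CD45+ Tom+ and library D is labelled CD45+ Tom-, and values for the libraries are given in this order (A, B, C, D) throughout. CD45 is the protein of Ptprc and marks leukocytes. Each sort gave 1 library, so no difference between libraries has a replicate check, no test was made, and how many mice a library pooled is not given in the sources used here. The intervals below are exact 95% intervals for counting error only.

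The ELR CXC chemokines are a family whose genes lie in 1 cluster on mouse chromosome 5. They bind Cxcr2 (and its relative Cxcr1), a G protein-coupled receptor that neutrophils carry and that directs them out of the blood along a chemokine gradient. Their genes are switched on within minutes to hours by IL-1, TNF and toll-like receptor ligands through NF-κB, their messages are short-lived, and IL-17 can lengthen that life. In adipose tissue fibroblast-like progenitors and macrophages are both known producers.

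In the mm10 annotation (GENCODE vM21), Cxcl5 (ENSMUSG00000029371) lies at chr5:90759360-90761624, Cxcl1 (ENSMUSG00000029380) at chr5:90891241-90893115 and Cxcl2 (ENSMUSG00000058427) at chr5:90903871-90905938. Cxcr2 (ENSMUSG00000026180) lies at chr1:74153989-74161246, and all 4 genes are on the + strand. Cxcl1 and Cxcl2 start 12630 bases apart. Their promoters, from RefSeq (GRCm38.p6), are shown because the 2 genes share start-site elements and yet were led by different cells in the results that follow. Each stretch is the 120 bases that end just before the first annotated exon, read 5′ to 3′ at chr5:90891121-90891240 for Cxcl1 and chr5:90903751-90903870 for Cxcl2. Capitals mark GGAATTTCC, a form of the NF-κB consensus, and ATAAAAGG, a TATA-box-like element.
Cxcl1: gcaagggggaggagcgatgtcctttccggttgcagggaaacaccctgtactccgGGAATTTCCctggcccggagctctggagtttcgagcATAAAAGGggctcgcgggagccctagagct
Cxcl2: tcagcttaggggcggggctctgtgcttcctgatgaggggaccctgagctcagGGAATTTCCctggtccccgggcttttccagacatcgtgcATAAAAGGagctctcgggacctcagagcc
GGAATTTCC began 66 bases before the start of Cxcl1 and 68 bases before that of Cxcl2. ATAAAAGG began 30 and 29 bases before. The longest run of bases the 2 stretches had in common was 14 bases and included GGAATTTCC. These motifs were picked after the sequences had been read. Searched on both strands of all 32851 RefSeq promoters (250 bases before to 50 after each start), GGAATTTCC was in 104 (0.317%) and ATAAAAGG in 577 (1.76%). A match is a description of letters and not a bound site.

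Some facts on the libraries bear on the values. In all, 13878 cells passed the filters (3886, 3674, 1927 and 4391 by library), with a median of 18331 to 19518 UMIs (unique molecular identifiers, 1 per captured transcript) a cell. The Tom labels were borne out by tdTomato counts, at 713 and 714 counts per 1000000 UMIs (CPM) in the Tom+ libraries and 15.7 and 18.7 in the Tom- libraries. The CD45 labels did not separate Ptprc, which stood at 217 and 157 CPM in the libraries labelled CD45- and at 223 and 188 CPM in those labelled CD45+. Libraries are therefore named by their labels only, and the extract protocol lists the CD45- Tom- sort where CD45+ Tom- would be due. Libraries also shared cell barcodes, most of all libraries B and D, with 4394 in common, of which 3618 had at least 10 times more UMIs in 1 of them. After filtering 0 to 31 cells a library were such shallow copies. Many more kept cells had a barcode also found in another library before filtering: 605, 1427, 220 and 1305 by library. Values without them are given below as those without barcodes of another library. Clusters were named from cell type markers, and the 4 genes and the gene lists below were kept out of the genes used for clustering unless they were markers.

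Of 29 clusters, 4 carried adipose progenitor cell (APC) markers and were called APC-like, with 3311 cells. Clusters 5 and 12 were macrophage-like (1375 cells), and cluster 19 was neutrophil-like (253 cells), with all 8 neutrophil markers raised. S100a9 stood there at 35644 CPM, S100a8 at 33319, Retnlg at 1691 and Ly6g at 74.2. 2 further groups matter and kept their numbers. Cluster 2 (1074 cells) raised 7 of 8 macrophage markers, and its leading genes include Car6, Arg1, Olr1, Chil3 and Clec4e. Of its leading genes only Chil3 is on the monocyte marker list and none is on the macrophage list. The naming rule left it unnamed for that alone. Cluster 8 (722 cells) raised mesothelial and APC markers alike and was led by Cxcl13, Cxcl5 and Clca3a2.

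Cxcl1 and Cxcl5 were mostly in other cells than the receptor, while Cxcl2 was in part in the same cells. Cxcl1 was mostly a transcript of APC-like cells, Cxcl2 of macrophage-like cells, cluster 2 and neutrophil-like cells, and Cxcl5 of cluster 8. Cxcr2 was almost wholly in the neutrophil-like cells. APC-like cells held 63.3% of the 207613 Cxcl1 UMIs while making up 23.9% of cells. Macrophage-like cells held 37.7% and cluster 2 held 26.2% of the 186825 Cxcl2 UMIs, at 9.91% and 7.74% of cells. Cluster 8 held 83.7% of the 14221 Cxcl5 UMIs at 5.20% of cells. Neutrophil-like cells held 86.7% of the 1012 Cxcr2 UMIs at 1.82% of cells. Per library the neutrophil-like share of Cxcr2 ran from 70.2% to 90.7% and the cluster 8 share of Cxcl5 from 80.6% to 92.1%. The APC-like share of Cxcl1 split by Tom label, at 30.2% and 22.96% in the Tom+ libraries against 73.0% and 73.5% in the Tom- libraries. In library C cluster 8, with 23.3%, held slightly more Cxcl1 UMIs than the APC-like cells.

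**Figure D1:**
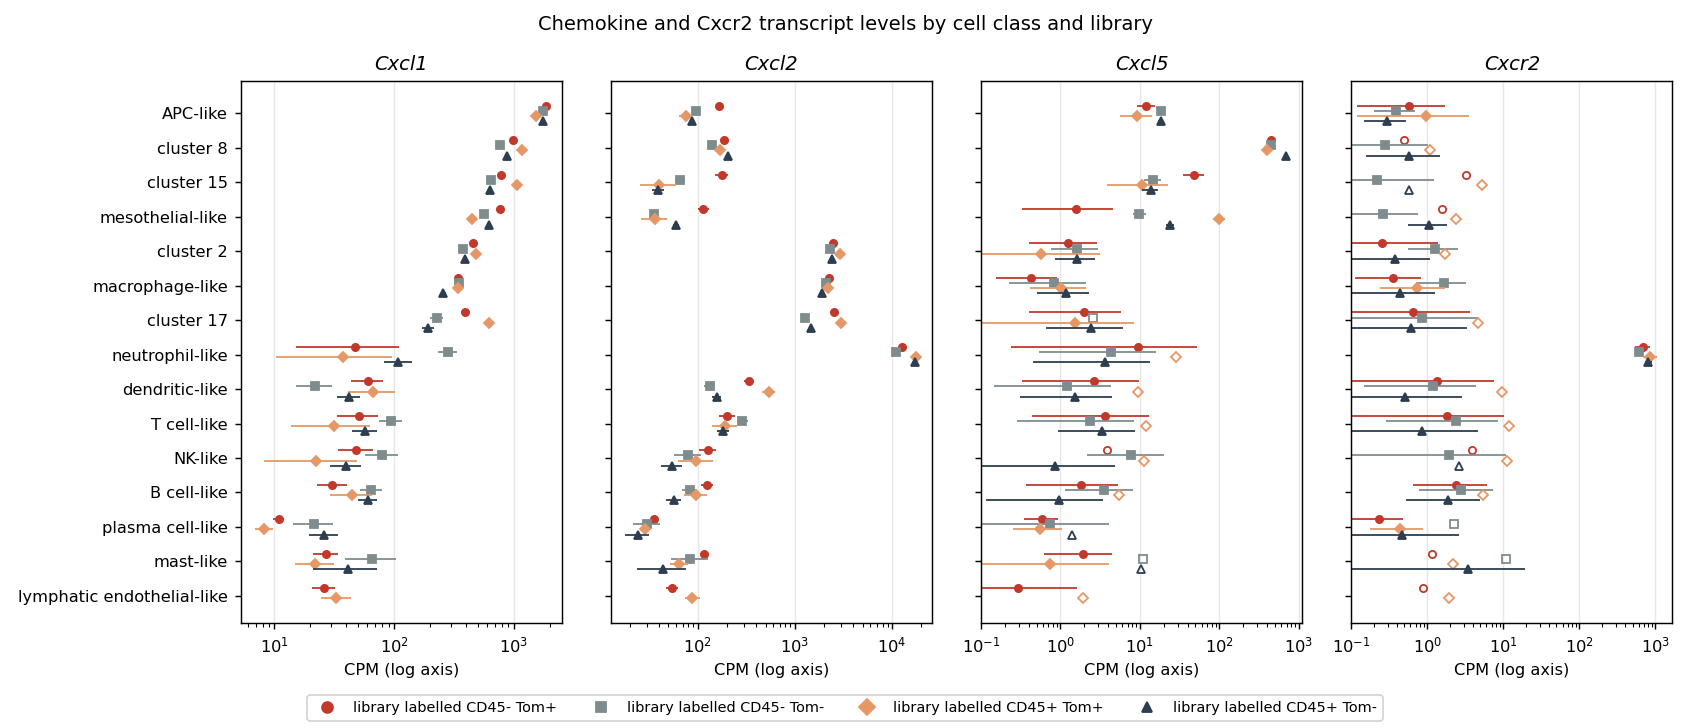
Levels of the 4 genes (x axis, CPM on a log axis) in cell classes and numbered clusters (y axis) in each library with at least 10 cells there. Filled points are CPM with exact 95% Poisson bars (bars that run to lower values end at the left edge of the panel), open points stand at the floor of 3 counts where no UMI was seen. Cxcl1 was highest in APC-like cells, Cxcl2 and Cxcr2 in neutrophil-like cells and Cxcl5 in cluster 8, in all 4 libraries.

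Cxcl1, in full the C-X-C motif chemokine ligand 1 (KC in the mouse), was highest in APC-like cells in every library. It stood there at 1865 CPM (interval 1828 to 1903) in library A, 1750 (1735 to 1764) in B, 1542 (1489 to 1597) in C and 1742 (1729 to 1756) in D. No other class or cluster reached the lowest of these values in any library with at least 10 of its cells. Clusters with APC markers that were left unnamed came next. Cluster 23, whose leading genes are mostly those of plasma cells, stood at 1082 CPM (70 cells) in library A and 787 (24 cells) in C, with 1 cell in each of the others. Its cells had a median of 58231 UMIs. Whether its barcodes held more than 1 cell was not tested beyond the doublet filter. Cluster 8 stood at 983, 769, 1164 and 876 CPM, and cluster 15, with mural genes among its first, at 783, 651, 1071 and 637 CPM. Mesothelial-like cells, which line the surface of the depot, stood at 773, 564, 448 and 627 CPM. Cluster 2 and macrophage-like cells were lower, at 376 to 484 CPM and 258 to 342 CPM. B cell-like cells, which are not a known source and serve here as 1 measure of free RNA, were at 30.5 to 64.1 CPM. Over all libraries they read 51.1 CPM, against 11.0 in plasma cell-like, 48.1 in NK-like and 64.8 in T cell-like cells. The background level thus depends on the class taken.

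The share of cells with a Cxcl1 UMI was 88.6% in APC-like cells (median 21666 UMIs a cell) and 29.7% in B cell-like cells (median 5842). With each cell thinned to 2000 UMIs, which left out 3 and 1 shallower cells, it was 65.0% (63.3 to 66.6) and 11.0% (8.90 to 13.5). Thinned shares were 60.4% in cluster 23, 53.8% in cluster 8, 39.8% in cluster 15, 45.0% in mesothelial-like cells, 32.9% in cluster 2 and 29.9% in macrophage-like cells, all above the B cell-like share. Neutrophil-like cells were at 17.4% (12.9 to 22.6), an interval that overlaps that of B cell-like cells, with 46.9, 280, 37.7 and 109 CPM over the libraries.

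Within the APC-like class Cxcl1 differed among clusters by more than it did among libraries. Cluster 4, whose leading genes include Sfrp1, C7, Ptx3 and the cytokine Il6, was highest at 2591 CPM over all libraries. Cluster 3, led by the growth factor Fgf10 with Enpp6 and Mme, stood at 1838 CPM. Cluster 22, with Pi16, a marker of early progenitors, stood at 954 CPM. Cluster 1, led by Inmt and Mmp11, was lowest at 700.1 CPM. In cluster 4 the libraries read 2944, 2425, 2540 and 2711 CPM, and in cluster 1 they read 822, 653, 621 and 722. No library of cluster 1 reached the lowest of cluster 3, which was 1626 CPM. The dissociation stress list (10 immediate-early and heat shock genes such as Fos and Egr1) was summed for the same clusters. Its level was 22663 CPM in cluster 4, 26214 in cluster 3, 16074 in cluster 22 and 32277 in cluster 1. The part of dissociation in the order of Cxcl1 was not tested.

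**Figure D2:**
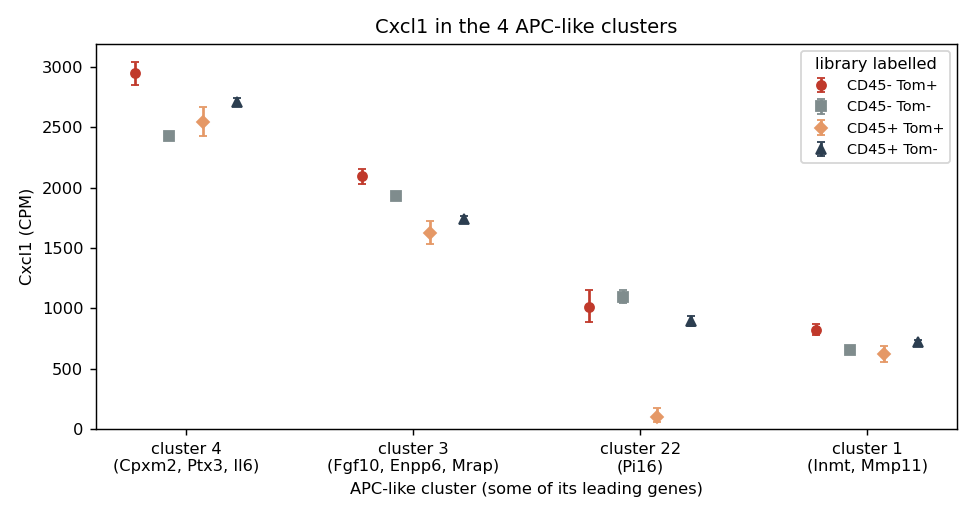
Cxcl1 level (y axis, CPM, linear from 0) in the 4 APC-like clusters (x axis) by library, with exact 95% Poisson bars. Cluster 4 sits between 2425 and 2944 CPM and cluster 1 between 621 and 822 CPM. The low point of cluster 22 in library C rests on 3 cells.

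Cxcl2 (also called MIP-2), the neighbour of Cxcl1 on the chromosome, was a myeloid transcript. Neutrophil-like cells read 12760 CPM (12091 to 13456) in library A, 11058 (10755 to 11368) in B, 17464 (16678 to 18278) in C and 17224 (16877 to 17577) in D. Those values rest on 21, 86, 23 and 123 cells. Neutrophil-like cells were the shallowest of the classes described here (median 4014 UMIs), yet they also had the most Cxcl2 UMIs per cell, 69.6 against 51.2 in macrophage-like cells and 45.6 in cluster 2. Thinned to 2000 UMIs, 97.6% (94.9 to 99.1) of neutrophil-like cells had a Cxcl2 UMI. Being few, they held 9.43% of all Cxcl2 UMIs, between 2.10% and 18.0% per library.

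Macrophage-like cells read 2240, 2092, 2204 and 1914 CPM of Cxcl2, and cluster 2 read 2466, 2315, 2939 and 2403. Both macrophage-like clusters were alike in this: cluster 12 (Marco, Vsig4, Cd163, genes of tissue-resident macrophages) stood at 2279 CPM and cluster 5 (Gpnmb, Mmp12) at 2102. Macrophage-like cells and cluster 2 together held 61.0% to 66.9% of Cxcl2 UMIs in each library. Which of them led depended on the Tom label. In the Tom+ libraries macrophage-like cells held 49.3% and 45.3% and cluster 2 held 15.2% and 15.7%. In the Tom- libraries cluster 2 held 39.4% and 37.3% and macrophage-like cells held 27.5% and 25.5%. The shares of cells moved with it, macrophage-like cells making up 14.7% and 15.3% of the Tom+ libraries against 5.91% and 6.65% of the Tom- libraries. The split between these groups also rests on the cluster names: with the looser limits (at least 200 genes, under 20% mitochondrial) and shallow copies left out, the class named macrophage-like held 59.0% of Cxcl2 UMIs. The mixed clusters 17, 18 and 21, each with macrophage or monocyte markers beside those of another class, held 16.2%, from 4.56% to 27.0% per library. Cluster 18, where plasma cell markers lead, held 14.6% and 14.8% in the Tom+ libraries, about as much as cluster 2, against 0.0136% and 0.175% in the Tom- libraries. Its cells had a median of 52444 UMIs, against 24829.5 in cluster 5 and 38927 in plasma cell-like cells. Whether its barcodes held more than 1 cell was not tested beyond the doublet filter.

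APC-like cells had Cxcl2 at 167, 95.4, 75.1 and 88.1 CPM and cluster 8 at 189, 142, 169 and 204 CPM. In B cell-like cells it was 126, 83.1, 96.7 and 56.5 CPM. Over all libraries Cxcl2 read 96.1 CPM in APC-like cells, 177 in cluster 8 and 87.1 in B cell-like cells. Other classes taken as background would lie on both sides, with 32.5 CPM in plasma cell-like, 84.1 in NK-like and 218 in T cell-like cells. Thinned shares of cells with a Cxcl2 UMI were 10.6% (9.58 to 11.7) in APC-like, 16.5% (13.8 to 19.5) in cluster 8, 6.17% in mesothelial-like and 16.9% (14.3 to 19.7) in B cell-like cells. At this depth the APC-like, cluster 8 and mesothelial-like shares do not rise above that of B cell-like cells. By CPM cluster 8 was above B cell-like cells in every library. B cell-like cells were shallower, with a median of 5842 UMIs against 16785 to 26046 in the APC-like clusters and 32096.5 in cluster 8. A fixed amount of free RNA would weigh more in them, so thinned shares cannot decide whether these groups hold Cxcl2 of their own. The 2 neighbouring genes were led by different cells, Cxcl1 by stromal and Cxcl2 by myeloid cells. In macrophage-like cells and cluster 2 the transcripts met in the same cells: of thinned macrophage-like cells with a Cxcl1 UMI 90.8% had a Cxcl2 UMI, against 68.0% of those without. In cluster 2 these shares were 91.2% and 74.5%, and in APC-like cells 11.8% and 8.46%. In neutrophil-like cells the shares were 93.2% (41 of 44 cells) and 98.6%. With Cxcl2 in 247 of all 253 of these cells, the order of these shares rests on very few cells. Over the 29 clusters the 2 levels, as log2(CPM + 1), had a Pearson r of 0.16, a description over clusters that share libraries.

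**Figure D3:**
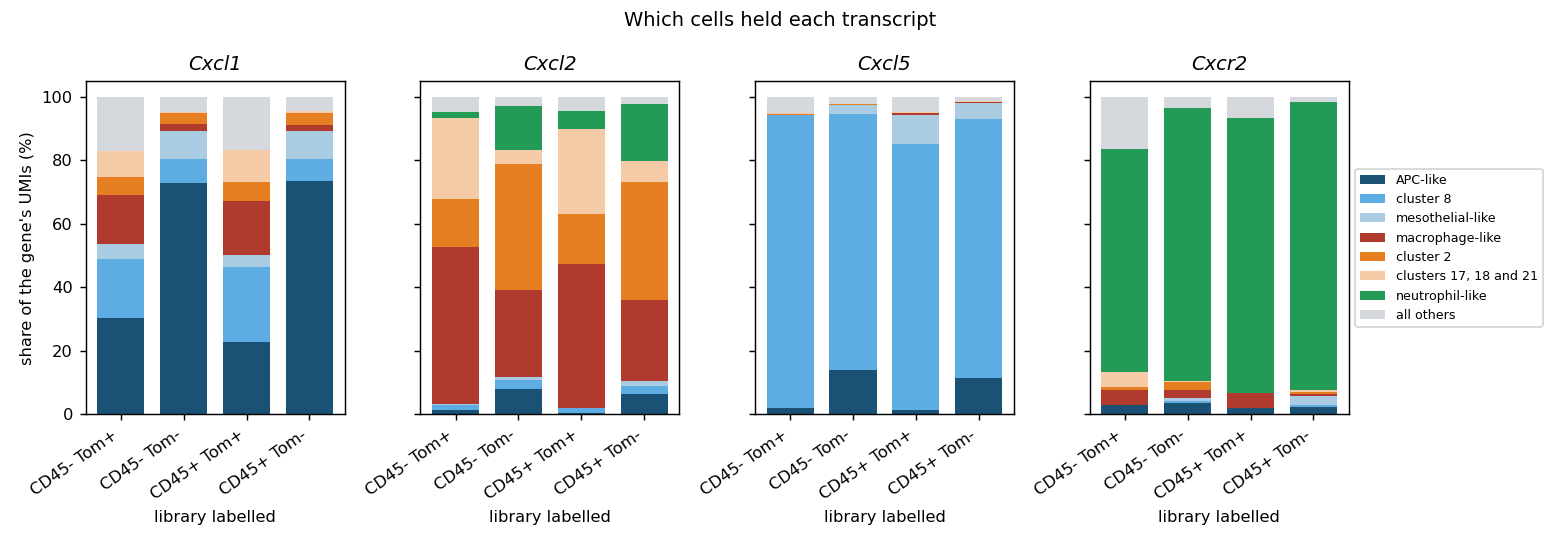
Share of each gene's UMIs (y axis, percent, stacked to 100) held by cell classes and numbered clusters in each library (x axis). Dark to light blue are APC-like cells, cluster 8 and mesothelial-like cells, red and orange are macrophage-like cells and cluster 2, and green is neutrophil-like cells. The blue part of Cxcl1 is larger in the Tom- libraries, while Cxcl5 is mostly cluster 8 and Cxcr2 mostly neutrophil-like in all 4.

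Cxcl5 (LIX in the mouse) had the largest share in 1 cell group of the 3 ligands. Cluster 8 read 451 CPM (434 to 468) in library A, 452 (437 to 468) in B, 396 (373 to 420) in C and 689 (669.5 to 709) in D. Library D was above the other three. In APC-like cells it read 12.0, 18.2, 9.21 and 18.4 CPM, and 1053 of those 1325 UMIs were in cluster 4, at 42.3 CPM. Mesothelial-like cells were uneven, at 1.58, 9.78, 98.7 and 23.9 CPM. The high value rests on 34 cells, and 94 of its UMIs were in 4 cells of cluster 28, a small cluster led by cell cycle genes such as Cdc20 and Plk1. The 30 other mesothelial-like cells of that library, in cluster 6, read 27.5 CPM. Macrophage-like cells (0.761 CPM over all libraries), cluster 2 (1.44) and B cell-like cells (1.74) were near 0. Thinned, 37.4% (33.8 to 41.1) of cluster 8 cells had a Cxcl5 UMI, 1.93% of APC-like and 0.649% of B cell-like cells. Within cluster 8 the transcript was uneven, with 59.0% of its UMIs in the top 10% of cells. Cluster 8 cells with Cxcl1 had Cxcl5 in 42.3% and those without in 31.7% of thinned cells. At Leiden resolution 2, which split cluster 8, the cluster with most of its cells held 71.6% of Cxcl5 UMIs.

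The other ELR CXC chemokines were scarce. Cxcl3, a close relative of Cxcl1 and Cxcl2, read 482 CPM in neutrophil-like cells and 64.4 CPM in cluster 2, which held 54.0% of its 2398 UMIs. Ppbp, the platelet member of the family, had 94 UMIs, 46.8% of them in cluster 2. Cxcl15 had 0 UMIs in 13878 cells.

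Cxcr2 was the receiver side. In neutrophil-like cells it read 684 CPM (536 to 861) in library A, 600 (531 to 675) in B, 858 (691 to 1053) in C and 809 (735 to 888) in D, from 73, 274, 91 and 439 UMIs. The interval of A overlaps those of the other three, while those of B and D do not overlap, nor do those of B and C. A UMI of Cxcr2 was in 81.0% of neutrophil-like cells and, thinned, in 61.7% (55.4 to 67.7). In APC-like cells it was in 0.664%, and in 0.121% once thinned. No other class exceeded 2.09 CPM, the level of B cell-like cells (12 UMIs, 1.08 to 3.64). In the lymphatic endothelial-like class and clusters 24, 25 and 26 no Cxcr2 UMI was seen. For the lymphatic endothelial-like class this allows up to 0.593 CPM (3 counts).

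Over all cells Cxcr2 read 1.09 and 2.21 CPM in the Tom+ libraries and 4.27 and 5.30 CPM in the Tom- libraries. Neutrophil-like cells made up 0.540% (0.335 to 0.825) and 1.19% (0.758 to 1.79) of the Tom+ libraries and 2.34% (1.88 to 2.88) and 2.80% (2.33 to 3.33) of the Tom- libraries. So the library order of Cxcr2 was that of the neutrophil-like share. With a looser filter (at least 200 genes, under 20% mitochondrial) these shares were 0.490% and 0.903% against 1.27% and 1.64%. That filter changes both limits at once, and the part of either in these shares was not tested.

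Other receptors for neutrophil attractants were shared more widely. Cxcr1 was at 22.3 CPM in neutrophil-like cells, which held 96.4% of its 28 UMIs. The formyl peptide receptors Fpr1 and Fpr2 read 176 and 298 CPM there and 24.5 and 52.0 CPM in cluster 2. C5ar1, the complement C5a receptor, read 733 CPM in neutrophil-like, 373 in macrophage-like cells and 296 in cluster 2. Ptafr, for platelet-activating factor, read 486, 210 and 201 CPM in the same groups. Ltb4r1, for leukotriene B4, was highest outside the neutrophils, at 271 CPM in cluster 10 (Il17a and Trdc among its genes) against 89.9 CPM in neutrophil-like cells. Of these 7 receptors Cxcr1 and Cxcr2 were the ones with more than 80% of their UMIs in neutrophil-like cells.

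The cytokines that induce the ligands had their own pattern. Il1b read 7733 CPM in neutrophil-like cells, 819 in dendritic-like cells and 557 in cluster 2. Tnf read 336 CPM in neutrophil-like and 300.5 in mast-like cells. Il17a was at 280 CPM in cluster 10, which held 88.9% of its UMIs. Il1r1, the signalling receptor of IL-1, was highest in cluster 8 at 380 CPM, with 219.9 CPM in cluster 10, 214 CPM in APC-like cells, 4.95 CPM in neutrophil-like cells and 2.43 CPM in macrophage-like cells. APC-like cells and cluster 8 held 53.7% and 29.3% of Il1r1 UMIs. Of the 4 other receptor genes listed, 3 had their highest CPM by class in the neutrophil-like cells, as did Il1b and Tnf. By share of UMIs other groups led these cytokines. Cluster 2 held 38.0% of Il1b UMIs against 31.8% in neutrophil-like cells. Macrophage-like cells held 31.4% of Tnf UMIs against 6.11% in neutrophil-like cells. Tnfrsf1a, the main TNF receptor, was at 233 CPM in neutrophil-like, 217 in APC-like and 102 in macrophage-like cells. Il1rap, the partner chain of Il1r1, read 325 CPM in neutrophil-like cells and 10.3 in APC-like cells, and Il17ra read 212 and 77.2 CPM. Il17rc was highest in mesothelial-like cells, at 31.5 CPM. Csf3, the neutrophil growth factor G-CSF, was highest in cluster 24, at 73.3 CPM, and cluster 8 held 55.4% of its UMIs at 37.7 CPM. Nfkbia, an early NF-κB target that brakes the pathway, read 2616 CPM in neutrophil-like cells, 1002 in cluster 2, 583 in macrophage-like and 567 in APC-like cells. Zfp36, which destroys short-lived messages, was at 2547 CPM in APC-like cells.

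Atypical receptors take up chemokines without signalling. Whether those below bind Cxcl1, Cxcl2 or Cxcl5 was not measured here. Ackr3 read 205 CPM in APC-like and 183 CPM in lymphatic endothelial-like cells. Among the APC-like clusters it stood at 1381 CPM in cluster 22 and at 125 to 164 CPM in clusters 1, 3 and 4. Ackr2 read 129 CPM in lymphatic endothelial-like cells. Ackr1, which carries chemokines across venule walls, was highest in cluster 24 (a Vwf-bearing cluster with blood endothelial markers) at 104 CPM, with 56.04 CPM in cluster 13. The adhesion molecules that let neutrophils roll were found in the same cells: Selp at 436 and 142 CPM and Sele at 88.6 and 14.96 CPM in clusters 24 and 13. Cluster 24 had 85 cells and few UMIs a cell (median 5051).

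The genes most like each member over the 29 clusters, by Pearson r of log2(CPM + 1) among 11121 other genes with at least 20 CPM in some cluster, are a description with no test. For Cxcl1 these were Lrp1 (r 0.96), Clmp (0.94), Dram1 (0.94), Mmp19 (0.92) and Cd302 (0.91). For Cxcl2 they included Tlr13 (0.95), Clec4d (0.95), Cd300ld (0.94) and C5ar1 (0.93). For Cxcl5 they were Chl1 (0.94), Gdf6 (0.91), Gdpd2 (0.91), Col24a1 (0.90) and Wt1os (0.89). For Cxcr2 they were Retnlg (0.99), Gm39321 (0.98), Nlrp12 (0.98), Ngp (0.98) and Gm5416 (0.98). The genes of Cxcl5 and Cxcr2 are largely those that set their 1 cluster apart. All points come from the same 4 libraries.

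The comparison of Tom+ with Tom- cells asked whether p16high cells held more of the ligands. It was made for 2 pairs, A over B (both labelled CD45-) and C over D (both labelled CD45+). Over all cells Cxcl1 was lower in the Tom+ libraries: 334 against 987 CPM for A over B and 292 against 965 CPM for C over D, log2 ratios of -1.56 (-1.58 to -1.54) and -1.73 (-1.75 to -1.70). Cxcl5 was lower too, with 31.4 against 53.5 CPM and 27.7 against 64.8 CPM. Cxcl2 was a little higher, with 681 against 493 CPM and 696 against 569 CPM. Its direction turned when each cell was weighted equally, with log2 ratios of -0.02 and -0.04. The makeup of the libraries differed at the same time: APC-like cells were 6.12% and 4.67% of the Tom+ libraries and 38.3% and 35.9% of the Tom- libraries. For Cxcl5 the C over D log2 ratio of -1.23 became -0.02 when barcodes found in another library were left out.

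Within APC-like and macrophage-like cells and clusters 2 and 8 the members mostly differed little, as did nearly all genes. Their ratios are set against the share of all genes, among those averaging 5 CPM or more, that differed 2-fold or more in the same pair. In APC-like cells that share was 1.89% for A over B and 1.82% for C over D. In macrophage-like cells it was 1.36% and 1.85%, in cluster 2 it was 1.92% and 2.97%, and in cluster 8 it was 2.11% and 3.94%. No member averaging 5 CPM or more reached 2-fold in any of these 8 comparisons (Cxcl1, Cxcl2 and Cxcl5 in APC-like cells and cluster 8, Cxcl1 and Cxcl2 in the other 2 groups). Cxcr2 was under 5 CPM in all of them. Fewer than 50 neutrophil-like cells were in each Tom+ library, so no ratio was formed there. In other groups some ratios passed 2-fold. These were the A over B log2 ratios of Cxcl2 (1.68) and Cxcl5 (-2.63, from 3 and 113 UMIs) in mesothelial-like cells and of Cxcl2 in cluster 17 (1.01). The A over B ratios of Cxcl1 in B cell-like cells (-1.07) and cluster 10 (-1.14) also did, and the C over D ratio of Cxcl1 in plasma cell-like cells (-1.65). The share of all genes that differed 2-fold was not taken in these groups, so these ratios have no background to be read against.

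The largest ratios in APC-like cells were those of the 2 ligands that these cells hold at low levels. Cxcl5 was lower in the Tom+ library of both pairs, at 12.0 against 18.2 CPM, a log2 ratio of -0.60 (-1.01 to -0.22), and at 9.21 against 18.4 CPM, -0.996 (-1.74 to -0.34, from 19 and 682 UMIs). Between libraries of the same Tom label it was 0.38 (-0.38 to 1.21) and -0.01 (-0.17 to 0.15). Cxcl2 was 0.81 (0.70 to 0.92) for A over B and -0.23 (-0.47 to 0.00) for C over D, and 1.15 for A over C.

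For Cxcl1 in APC-like cells the log2 ratio was 0.09 (0.06 to 0.12) for A over B and -0.18 (-0.23 to -0.12) for C over D. The pairs went opposite ways, and either sign turned under another setting: the first was -0.03 with cells thinned to 2000 UMIs, and without barcodes of another library they were 0.39 and 0.07. The same ratio between libraries that share the Tom label was 0.27 (0.22 to 0.33) for A over C and 0.01 (-0.01 to 0.02) for B over D, so the Tom+ against Tom- values do not exceed what libraries of 1 Tom label showed. The Tom+ cells are 238 and 90, spread over clusters 1, 3, 4 and 22 as 96, 82, 50 and 10 and as 35, 26, 26 and 3. In the Tom- libraries clusters 1, 3 and 4 each held about equal numbers (467, 430 and 447, and 531, 524 and 444). With both libraries set to 1 cluster mix the ratios were 0.21 and -0.14. Summed dissociation stress was 26854 against 25853 CPM and 28595 against 25972 CPM, 10 of 10 genes under 2-fold, and its part was not tested.

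Cxcl1 in cluster 8 was higher in the Tom+ library of both pairs, with log2 ratios of 0.35 (0.30 to 0.41) and 0.41 (0.35 to 0.47). Between libraries of the same Tom label it was -0.24 and -0.19. Cxcl5 in these cells had a ratio of 0.00 (-0.08 to 0.07) for A over B and -0.80 (-0.90 to -0.71) for C over D. With the looser filter on both genes and mitochondrial UMIs these were 0.47 and -0.23, in a cluster of 720 cells led by the same Cxcl13, Cxcl5 and Clca3a2 that was there named mesothelial-like. Library D was the highest of the 4, and the B over D ratio was -0.61 (-0.67 to -0.54). Csf3 in cluster 8 was lower in the Tom+ libraries, at 25.2 against 44.9 CPM and 11.5 against 51.7 CPM, and Il1r1 stood at 338 against 345 and 335 against 471 CPM. Summed stress genes there read 13360 against 12561 CPM and 15061 against 13302 CPM.

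Cxcl2 in macrophage-like cells had log2 ratios of 0.10 (0.07 to 0.13) and 0.20 (0.17 to 0.24), and in cluster 2 of 0.09 (0.05 to 0.13) and 0.29 (0.25 to 0.34). All 4 were above 0 and well under 2-fold. Between libraries of the same Tom label the ratios in these groups ran from -0.25 to 0.13. With doublets kept, the A over B ratio of macrophage-like cells was -0.08. Cxcl1 in cluster 2 had ratios of 0.27 and 0.30, and in macrophage-like cells of -0.03 and 0.41. Of the lists that belong to the pathway, the 5 NF-κB feedback and mRNA decay genes were all tested and 0 of 5 reached 2-fold in any of the 8 comparisons, with median log2 ratios from -0.14 to 0.12 where the medians of all genes tested ran from -0.13 to -0.02. The 10 dissociation stress genes gave 0 of 10 as well, with medians from -0.07 to 0.10. In the other lists 5 ratios passed 2-fold among genes averaging 5 CPM or more, where 1.36% to 3.94% of all genes did so in a comparison. Few genes of these lists were tested where this happened, so the count is not a result about a list. Il1b in macrophage-like cells was 1 of 2 inducing cytokines tested, and each of the others was the only gene of its list tested in that comparison. Il1b in macrophage-like cells was 33.6 against 80.0 CPM for A over B (37.5 against 57.9 CPM for C over D stayed under it). In cluster 8 the C over D log2 ratios of Il1b (-2.37, 1.80 against 9.28 CPM) and Csf3 (-2.17) and the A over B ratio of Ackr3 (-1.36, 3.93 against 10.1 CPM) were below. In APC-like cells the A over B ratio of Ptafr was above, at 1.72 (8.32 against 2.53 CPM).

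**Figure D4:**
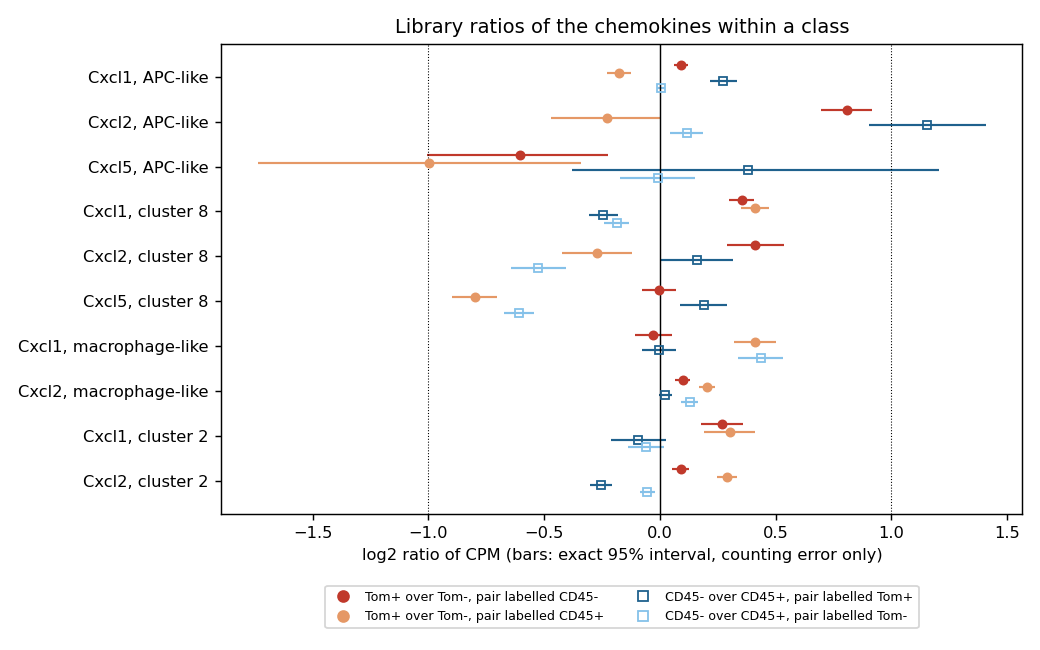
Log2 ratios of CPM between libraries (x axis) for the ligands in 4 cell groups (y axis), with exact 95% intervals for counting error. Filled circles compare Tom+ with Tom- libraries of the same CD45 label, and open squares compare libraries of the same Tom label. Dotted lines mark 2-fold. All filled circles lie within 2-fold, and the squares cover a similar range, up to 1.15 for Cxcl2 in APC-like cells.

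Neutrophil-like cells could be compared between libraries B and D, with 86 and 123 cells. There Cxcr2 had a B over D log2 ratio of -0.43 (-0.66 to -0.21), Cxcl2 one of -0.64 (-0.69 to -0.59) and Cxcl1 one of 1.37 (0.91 to 1.84). These libraries share the Tom label, and the sizes show how far 2 libraries of these cells can lie apart with no Tom difference between them.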

How the data were processed

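The 4 libraries, 1 for each sort, were made with the 10x Genomics Chromium 3′ kit (v3.1). Per the labels and the methods of the study, the authors counted reads with Cell Ranger 3.0.2 against mm10, and they deposited whole-number UMI counts per gene and barcode with no normalization. Depth was 64083756 to 139397501 UMIs a library. Counts of a 3′ tag do not scale with gene length.

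A barcode was kept if it had more than 1000 and fewer than 7000 genes, with mitochondrial UMIs below 8%. Doublets were scored with Scrublet in scanpy 1.11.5, and the 0.8% of cells per 1000 barcodes with the highest scores were left out. Clustering (2000 variable genes, 30 components, 15 neighbours, Leiden resolution 1) joined all libraries without integration. A marker was raised at 20 CPM or more and 4 times its median level among clusters. Naming a cluster for a class took at least 3 raised markers, unless an unrelated class had 75% or more of that share, another class led its 10 top genes or the cluster was shallow with no marker among these. The members, the gene lists and the marker lists were chosen with earlier results of these data known, and the naming thresholds were set after seeing them.

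CPM are summed counts with exact Poisson intervals, shares have Clopper-Pearson intervals, and log2 ratios (at least 50 cells in both libraries) have the conditional exact interval of 2 Poisson counts. The ratios and their intervals were checked on counts simulated from the Poisson model that the intervals assume. Unevenness between cells was not simulated, so the check does not reach it. For shares of cells each cell was also thinned to 2000 UMIs. The 4 members and every gene of the ELR CXC and attractant receptor lists could be named, and from other lists the 2 highest genes of a class. Genes of those lists named for further classes were chosen after their values were seen. The alternatives were a 200-gene and 20% mitochondrial filter, doublets kept, resolution 2, equal weight per cell, thinning and leaving out shared barcodes. Removing shallow copies and fixing the cluster mix were added after seeing the data. A gene that the likeness measure also picked is not reported here.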

Additional observations from a re-analysis of the deposited data

Results flagged for a closer look

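For 2 ligands the pairs of libraries A and B (labelled CD45-) and C and D (labelled CD45+) went opposite ways, each with an interval that left out 0. Cxcl1 in APC-like cells had a log2 ratio (Tom+ over Tom-) of 0.09 for A over B and -0.18 for C over D. Cxcl2 in cluster 8 had 0.41 for A over B and -0.27 for C over D, from 189 against 142 CPM and 169 against 204 CPM. With 1 library per sort the difference between the pairs was not tested. After thinning, the share of cluster 8 cells with a Cxcl2 UMI was not above that of B cell-like cells. B cell-like cells are shallower, so this does not decide whether cluster 8 holds Cxcl2 of its own.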

How the results depend on the processing

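With 1 library per sort no replicate could be left out, and counting intervals are narrow, so that 27 of 28 shares and 28 of 45 ratios within a class moved beyond them. In all alternatives the same group led Cxcl1, Cxcl5 and Cxcr2 by UMI share. The APC-like share of Cxcl1, the macrophage-like share of Cxcl2, the cluster 8 share of Cxcl5 and the neutrophil-like share of Cxcr2 were, in that order, 55.6%, 33.4%, 69.8% and 82.0% with the looser filter (at least 200 genes, under 20% mitochondrial), 64.9%, 34.2%, 81.4% and 82.4% with doublets kept, and 65.0%, 27.4%, 80.5% and 96.3% with every cell weighted equally. They were 65.4%, 27.3%, 80.9% and 97.1% with cells thinned to 2000 UMIs, 63.0%, 37.1%, 79.4% and 91.2% without barcodes of another library, and 59.4%, 59.0%, 74.8% and 82.0% with the looser filter and no shallow copies. At Leiden resolution 2 the first 3 were 60.2%, 41.5% and 71.6%.

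For Cxcl1 in APC-like cells the log2 ratio (Tom+ over Tom-) for A over B was 0.032 with the looser filter, 0.13 with doublets kept, 0.053 at resolution 2, -0.0076 with no shallow copies, -0.029 thinned, 0.39 without barcodes of another library and 0.21 with the pooled cluster mix. For C over D it was -0.25 with the looser filter, -0.43 thinned and 0.068 without barcodes of another library. For Cxcl2 in macrophage-like cells the ratio for A over B was 0.00044 with the looser filter, -0.077 with doublets kept, 0.036 with no shallow copies, 0.19 thinned and 0.26 without barcodes of another library. For C over D it was 0.16, 0.12, 0.14 and 0.15 with the looser filter, with no shallow copies, with equal weights and thinned. For Cxcl2 over all cells the ratios for A over B and C over D turned to -0.024 and -0.044 with equal weights, -0.031 and -0.063 thinned, and -0.0044 and -0.015 without barcodes of another library. For Cxcl5 in cluster 8 the ratio for A over B was 0.47 with the looser filter, -0.078 with doublets kept, -0.14 at resolution 2, -0.090 with no shallow copies and -0.31 without barcodes of another library. For C over D it was -0.23, -0.60, -0.41 and -0.57 with the looser filter, with no shallow copies, thinned and without barcodes of another library, and at resolution 2 the cluster held too few cells. Beyond the construction of each setting the cause was not tested. No paired analysis was possible because each group holds 1 library. Few neutrophil-like cells in the Tom+ libraries limit what can be said of Cxcr2 there.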

Other observations

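Mesothelial-like cells held 7.85% of Cxcl1 UMIs and could be compared between libraries A and B, with 73 Tom+ and 388 Tom- cells. Cxcl1 there read 773 against 564 CPM, a log2 ratio of 0.45 (0.37 to 0.54). Cxcl2 read 115 against 35.9 CPM and Cxcl5 read 1.58 against 9.78 CPM, from 3 and 113 UMIs. Between libraries B and D, with 388 and 410 mesothelial-like cells, Cxcl5 differed as well, at 9.78 and 23.9 CPM. The share of all genes that differed 2-fold was not taken in mesothelial-like cells. These differences thus have no background to be read against.

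Cluster 17 (263 cells), with monocyte and T cell markers both raised, had Cxcl2 at 2549 and 2989 CPM in the Tom+ libraries and 1262 and 1474 CPM in the Tom- libraries. Its Cxcl2 was in 58.8% of cells after thinning, against 16.9% of B cell-like cells. The share of all genes that differed 2-fold was not taken in this cluster either. The Tom+ cells number 64 and 28, and the cluster mixes markers of different cell types. At Leiden resolution 2 a monocyte-like cluster led, as cluster 17 is, by Ms4a4c, Gpr141 and Ifitm6 held 12, 48, 4 and 59 cells by library. A cluster led by Eomes, with T cell and macrophage markers, held 51, 27, 24 and 37. The overlap of these clusters with cluster 17 was not counted. The part of makeup in the gap between Tom+ and Tom- libraries was not tested.

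Dendritic-like cells had Cxcl2 concentrated in few cells, with 83.5% of its UMIs in the top 10% of cells. In neutrophil-like cells that share was 35.9%.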
